A study of Mus musculus with 12 samples.

Results

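The genes described here are 10 endocytic receptors of macrophages: the scavenger receptors Marco, Msr1, Cd36, Stab1 and Cd163, the folate receptor Folr2, and the C-type lectins Mrc1, Clec10a, Mgl2 and Clec7a. They were chosen by symbol, as the rows of the count table whose Ensembl gene identifier maps to these names. All 10 were present among the 56980 gene identifiers of the table, and all 10 were among the 15110 genes that passed the low-count filter and were tested. Mgl2 passed that filter through its M0 libraries, since it was at 0 or 1 count in every M1 library.

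The cells were mouse bone marrow-derived macrophages, grown for 7 days in medium conditioned by L929 fibroblasts, a source of the growth factor M-CSF. Unstimulated cells are called M0, and cells given 100 ng/ml lipopolysaccharide (LPS, a bacterial cell wall component) with 10 ng/ml interferon-gamma are called M1. Each state was profiled by bulk RNA sequencing in wild-type cells and in cells labelled RankCre-Regnaes3cKO, called cKO here, with 3 libraries in each of the 4 groups. Wild-type M0 libraries carry replicate numbers 4 to 6, cKO M0 1 to 3, wild-type M1 10 to 12 and cKO M1 7 to 9, and values below are listed in that numerical order within a group. The stated purpose was to study what Regnase-3, an RNA-binding protein of the Zc3h12 family encoded by Zc3h12c, does during polarization of macrophages that express the receptor Rank. The Cre recombinase is named for Rank, no Cre-only control is described in the labels, and the labels do not say whether the 3 libraries of a group came from separate animals. The p-values therefore measure the spread between these libraries, which may be technical.

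Scavenger receptors bind modified lipoproteins, dying cells and microbial surfaces, and deliver them to lysosomes. C-type lectins recognise sugars, such as mannose on glycoproteins, galactose-type sugars on mucins or beta-glucan on fungi. Mrc1, Cd163, Folr2, Stab1, Clec10a and Mgl2 are commonly used as markers of resting or alternatively activated macrophages, whereas Marco is known to be induced in macrophages by bacterial products.

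Library totals were 41721452 to 42197986 counts, and no libraries were identical. Zc3h12c was at 16.4 ± 0.77 CPM (counts per 1000000 of the TMM-scaled library total; SD, n = 3) in wild-type M0, 15.6 ± 2.57 in cKO M0, 176 ± 16.6 in wild-type M1 and 110 ± 15.2 in cKO M1, so transcripts of the gene remained in the cKO libraries. In M1 it was lower in cKO than in wild-type cells (log2 -0.68, edgeR adjusted p = 0.00101), and the libraries did not overlap. In M0 the difference was -0.07 (edgeR adjusted p = 0.81), and the libraries overlapped. The labels do not say which exons the deletion removes, and a count over the whole gene does not check it. Summed macrophage markers stood at 14902 to 19362 CPM in every library, with none of 10 at 0. Single markers in the sum moved in opposite directions between the states. Lyz2 was 7589 to 11755 CPM in wild-type M0 and 4187 to 5840 CPM in wild-type M1. Adgre1 was 2170 to 2421 CPM and 4032 to 4534 CPM in those groups. B-cell, platelet and endothelial markers are given beside Clec7a, Mgl2, Cd36 and Stab1, receptors that those cells can express or that varied with some of those markers in M0.

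In wild-type cells M1 differed from M0 for 8 of the 10 receptors at an adjusted p under 0.05 (edgeR quasi-likelihood test, Benjamini-Hochberg over 15110 genes). Marco, Msr1 and Cd36 rose, and Mrc1, Cd163, Stab1, Clec10a and Mgl2 fell. The 3 that rose compare with 34.2% of all genes tested, and the 5 that fell with 37.1%, so the share that rose was near the background. Mgl2, 1 of the 5, passed the filter only through the M0 group where it is high, so its fall is a description and the count without it is 4. In cKO cells the same 3 rose, against a background of 34.2%, and 6 fell, against 36%, Mgl2 again among them and the sixth being Folr2. The median log2 fold change of the 10 receptors was -0.88 in wild-type and -0.77 in cKO cells, beside -0.07 and -0.04 over all genes. Both medians of the receptors include Mgl2. Without it the middle value was that of Folr2, at -0.22 in wild-type and -0.51 in cKO cells. These splits depend on the scaling: with library totals in place of TMM factors, the median of all genes moved to -0.65 in wild-type and -0.58 in cKO cells, and the receptors split into 2 higher and 7 lower in wild-type and 2 higher and 8 lower in cKO cells. Over all genes, calls split into 5175 higher and 5612 lower in wild-type cells with TMM, and into 2769 higher and 9000 lower with library totals. In cKO cells the same change of scaling moved the split from 5168 higher and 5441 lower to 2778 higher and 8691 lower.

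**Figure D1:**
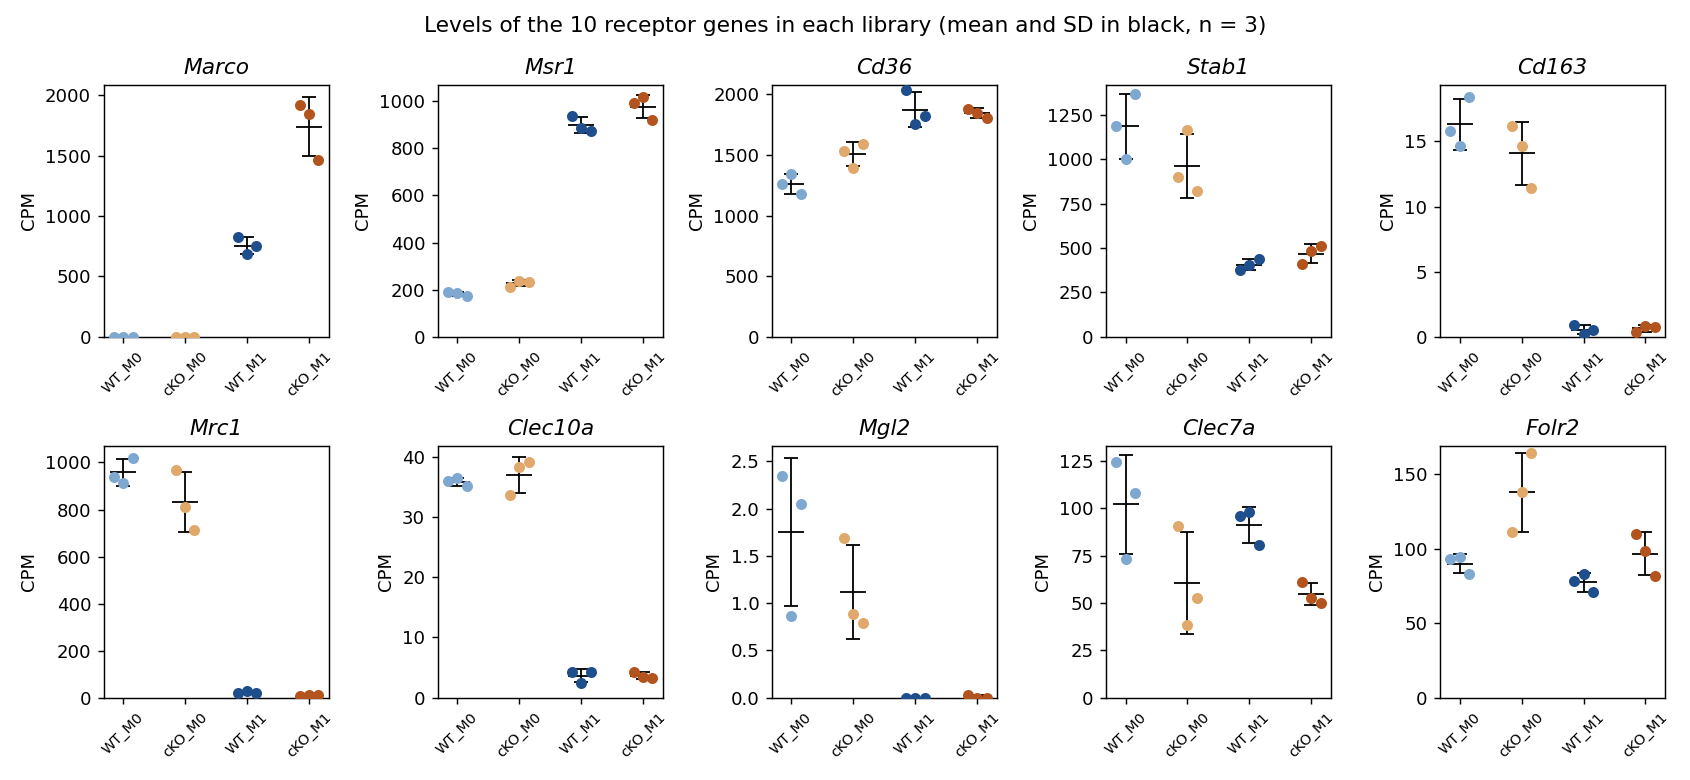
Levels of the 10 receptors in CPM on linear axes that start at 0, 1 panel per gene and 1 point per library, with the mean and SD of each group of 3 in black. Marco is near 1 CPM in M0 libraries and at 682 to 1919 CPM in M1 libraries, while Mrc1 goes from 715 to 1021 CPM down to 8.15 to 26.5 CPM.

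Marco (ENSMUSG00000026390) encodes a class A scavenger receptor with a collagen-like stalk that binds bacteria and unopsonised particles. Its level was 1.70, 1.28 and 0.89 CPM in wild-type M0 and 1.38, 1.92 and 2.10 CPM in cKO M0, from 45 to 107 counts per library. In M1 it was 828, 682 and 753 CPM in wild-type and 1919, 1840 and 1459 CPM in cKO cells. No M1 library came near an M0 library, and every cKO M1 library was above every wild-type M1 library. The M1 rise was 9.19 ± 0.22 on the log2 scale (SE, n = 3 against 3; edgeR adjusted p = 1.2e-14) in wild-type, or 584-fold, and 9.91 ± 0.22 (adjusted p = 5.9e-15) in cKO cells. These are the largest log2 fold changes among the 10 receptors for the state comparison in both genotypes, leaving aside Mgl2, whose M1 libraries are at 0 or 1 count. Among M1 libraries, Marco was 2.31-fold higher in cKO, a log2 difference of 1.21 ± 0.15 (adjusted p = 9.8e-05). It stayed called in all 18 other settings, with a highest adjusted p of 0.00116. In M0 the difference was 0.48 ± 0.22 (adjusted p = 0.26), and the libraries overlapped. The test of the difference between these 2 genotype effects gave 0.72 ± 0.27 (adjusted p = 0.11, and 0.041 in DESeq2), so a larger effect in M1 was not established by the edgeR test.

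Msr1 (ENSMUSG00000025044) encodes the macrophage scavenger receptor that takes up acetylated and oxidised low-density lipoprotein. Its level was 190, 185 and 174 CPM in wild-type M0 and 213, 235 and 233 CPM in cKO M0. In M1 it was 938, 888 and 872 CPM in wild-type and 994, 1016 and 922 CPM in cKO cells. The M0 groups did not overlap, with all 3 cKO libraries higher, whereas the M1 groups did overlap. Msr1 rose with stimulation 4.92-fold in wild-type (log2 2.30 ± 0.08, adjusted p = 5.7e-13) and 4.30-fold in cKO cells (2.11 ± 0.08, adjusted p = 1.4e-12).

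Msr1 was 1.24-fold higher in cKO than in wild-type M0 cells (log2 0.31 ± 0.07, edgeR adjusted p = 0.048), a small difference close to the threshold. Msr1 and Folr2 were the 2 receptors called higher between genotypes in M0, where 0.662% of all genes were called higher and 0.953% lower, and none of the 10 was called lower. The median over the 10 was -0.08, beside 0.01 over all genes. The Msr1 call was lost when 1 of 8 libraries was left out. These were wild-type M0 replicates 4, 5 and 6 (adjusted p 0.127, 0.059 and 0.296), cKO M0 replicates 2 and 3 (0.119 and 0.252), wild-type M1 replicates 10 and 12 (0.0658 and 0.0638) and cKO M1 replicate 8 (0.076). The M1 libraries enter because all groups share 1 estimate of the spread. In M1 the Msr1 difference was 0.12 ± 0.07 (adjusted p = 0.28), with a 95% interval of -0.04 to 0.28.

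Mrc1 (ENSMUSG00000026712) encodes the mannose receptor CD206, which clears glycoproteins with exposed mannose. Its level was 940, 912 and 1021 CPM in wild-type M0 and 968, 810.3 and 715 CPM in cKO M0, and these groups overlapped. Stimulated cells had 19.9, 26.5 and 18 CPM in wild-type and 8.15, 10.2 and 13.2 CPM in cKO cells. Each M1 library was far below each M0 library, and every cKO M1 library was below every wild-type M1 library. The fall with stimulation was 44.7-fold in wild-type (log2 -5.48 ± 0.19, adjusted p = 6.9e-13) and 79.1-fold in cKO cells (-6.31 ± 0.20, adjusted p = 2.2e-13). Fewer cells expressing a gene and less RNA per cell cannot be told apart in bulk libraries, here and in each result below.

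In M1 the remaining Mrc1 level in cKO cells was 49.0% of that in wild-type cells (log2 -1.03 ± 0.17, adjusted p = 0.00082). That call held in all 18 other settings, with a highest adjusted p of 0.0068. In M0 the difference was -0.20 ± 0.15 (adjusted p = 0.50). The genotype effect differed between the states by -0.82 ± 0.23 (interaction adjusted p = 0.039), and Mrc1 was the only one of the 10 receptors called there, where 4.02% of all genes were called higher and 4.14% lower. The interaction call was lost when 1 of 8 libraries was left out: wild-type M0 replicates 4, 5 and 6 (adjusted p 0.0745, 0.0701 and 0.0697), cKO M0 replicate 1 (0.081), wild-type M1 replicates 10 and 11 (0.059 and 0.11) and cKO M1 replicates 7 and 8 (0.068 and 0.101). Its size stayed between -0.88 and -0.65 over those 8. With library totals, interaction calls over all genes split into 796 higher and 519 lower, beside 608 higher and 625 lower with TMM.

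Between the genotypes in M1, Marco was the 1 receptor called higher, where 8.98% of all genes were, and Mrc1 and Clec7a were the 2 called lower, where 9.67% were. Neither share stands out from the background for so short a list. With library totals, Folr2 was called higher as well and Clec7a was not called, giving 2 higher and 1 lower, and calls over all genes split into 1982 higher and 1239 lower in place of 1357 higher and 1461 lower. The median log2 fold change of the 10 receptors was 0.16, beside 0.02 over all genes. That median includes Mgl2, which had 0 or 1 count in every M1 library. Without Mgl2 the middle value was that of Msr1, at 0.12.

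**Figure D2:**
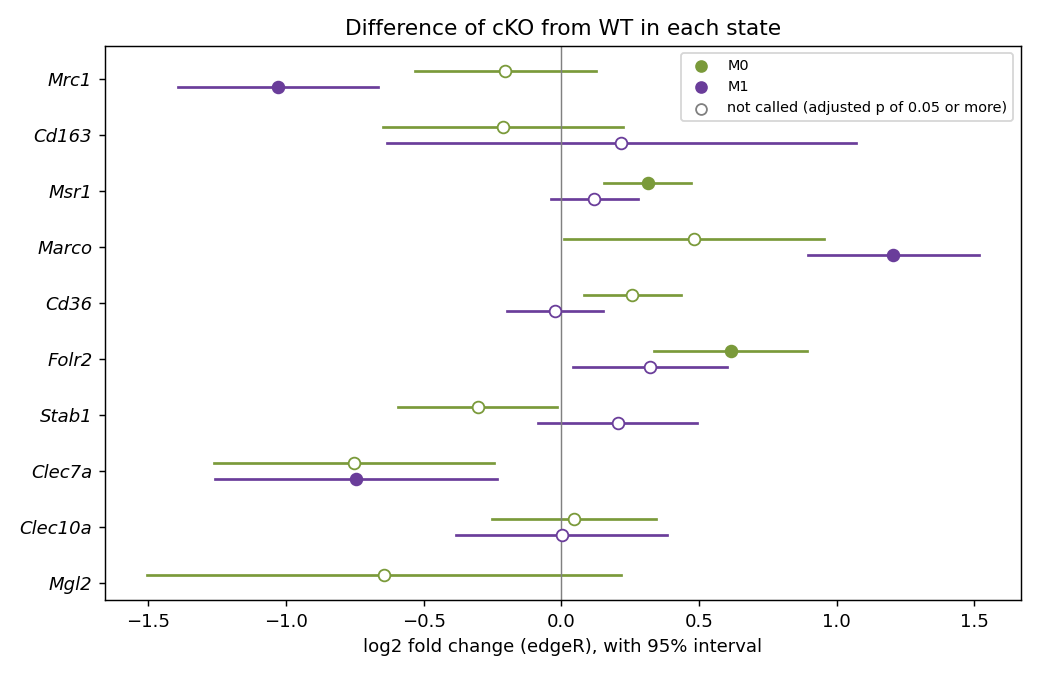
Log2 fold change of each receptor in cKO against wild-type cells with its 95% interval, in M0 and in M1; open points are not called. Marco at 1.21 and Mrc1 at -1.03 in M1 lie farthest from 0 among called differences, and Mgl2 is drawn for M0 only because it was at or under 1 count in M1.

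Marco and Mrc1 moved in opposite directions by the widest margins among the 9 receptors other than Mgl2, and the ratio of the pair, chosen after their values were seen, is given per kilobase of gene length as a description. As log2 of Marco over Mrc1, it was -7.38, -7.75 and -8.44 in wild-type M0, and -7.73, -6.99 and -6.68 in cKO M0. M1 values were 7.11, 6.41 and 7.11 in wild-type and 9.61, 9.23 and 8.51 in cKO cells. The ratio restates the changes of the 2 genes library by library. Expressed as a ratio, wild-type M1 libraries had 85.3 to 139 times as much Marco as Mrc1 per unit length, and cKO M1 libraries 365 to 779 times.

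The sequences upstream of these 2 genes are shown because the genes moved in opposite directions under the same stimulus. Both windows are the 250 bases before the RefSeq start of transcription, 5′ to 3′ on the strand of the gene, on GRCm38.p6. Capitals mark the letters GAGGAA or the same motif on the other strand (TTCCTC), a form of the sequence bound by the macrophage factor PU.1. The Mrc1 window is chr2:14229164-14229413 on the plus strand, and the Marco window is chr1:120505025-120505274 on the minus strand.
Mrc1: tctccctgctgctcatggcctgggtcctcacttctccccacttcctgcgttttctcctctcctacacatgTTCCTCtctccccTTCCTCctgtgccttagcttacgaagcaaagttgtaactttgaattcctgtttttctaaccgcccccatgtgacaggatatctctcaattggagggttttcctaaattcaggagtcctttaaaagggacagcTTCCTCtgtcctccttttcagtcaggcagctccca
Marco: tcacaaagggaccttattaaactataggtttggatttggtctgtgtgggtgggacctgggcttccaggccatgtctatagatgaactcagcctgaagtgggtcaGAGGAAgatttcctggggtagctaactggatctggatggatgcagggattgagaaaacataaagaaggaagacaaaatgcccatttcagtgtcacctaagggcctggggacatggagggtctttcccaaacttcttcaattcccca
The Mrc1 window holds 3 matches, whose first bases lie 180, 167 and 35 bases before the start, and the Marco window holds 1, at 146 bases before it. The motif occurs in 23.4% of 32536 RefSeq windows of the same length, on either strand. Neither window holds TTCNNNGAA (the interferon-gamma activated sequence, in 7.04% of windows), TTCNNNNGAA (a STAT6 form, 5.89%), TGANTCA (an AP-1 form, 6.73%) or TGCTGA (part of the MAF recognition element, 16.1%). Windows were matched for 8 of the 10 receptors, with none for Msr1 or Clec10a. The GAGGAA form is also in the windows of Stab1, Clec7a and Mgl2, and the STAT6 form in both windows of Clec7a. The AP-1 form is in 1 of 2 windows of Folr2, and the MAF element in the windows of Cd36, Folr2 and Stab1. The Cd163 window holds none of the 5 motifs. For the windows of Cd163 and Cd36 and 1 of 2 windows of Clec7a, the bases that follow matched no GENCODE vM21 transcript of the gene. The start assumed there was thus not borne out by those transcripts. Whether any of these matches is bound was not measured.

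Clec10a (ENSMUSG00000000318) and Mgl2 (ENSMUSG00000040950) encode the paired mouse lectins MGL1 and MGL2, which bind galactose and N-acetylgalactosamine. Clec10a was 35.9, 36.4 and 35.1 CPM in wild-type M0 and 33.5, 38.2 and 39.1 CPM in cKO M0. With LPS and interferon-gamma it was 4.18, 2.40 and 4.28 CPM in wild-type and 4.26, 3.38 and 3.25 CPM in cKO cells. States did not overlap, and genotypes overlapped in both states. The fall was 9.87-fold in wild-type (log2 -3.30 ± 0.17, adjusted p = 5.1e-11) and 10.2-fold in cKO cells (-3.35 ± 0.17, adjusted p = 4.4e-11). No genotype difference was called in M0 (0.04 ± 0.14, 95% interval -0.25 to 0.34) or in M1 (0.00 ± 0.18, interval -0.38 to 0.38).

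Mgl2 was scarce throughout, with 120, 43 and 104 counts in wild-type M0 and 87, 45 and 40 counts in cKO M0. All 3 wild-type M1 libraries had 0 counts, and the cKO M1 libraries had 1, 0 and 0. Against a floor of 3 counts per library, Mgl2 was at least 19.8-fold lower in wild-type M1 than in wild-type M0. In cKO cells the 1 count in M1 against 172 in M0 puts the M1 level at 0.843% of the M0 level, with an exact 95% interval of 0.0212% to 4.76% that covers counting error only. The M0 genotype difference was -0.65 ± 0.40 (adjusted p = 0.40), and no ratio is given in M1, where both groups are under the floor. Across the M0 libraries Mgl2, at 2.35, 0.86 and 2.05 CPM in wild-type and 1.69, 0.88 and 0.79 CPM in cKO cells, was high and low in the same libraries as the summed B-cell markers given with Clec7a below, and their part in the Mgl2 values was not tested. The pair are near-identical in places: 9.02% of the 50-base stretches of Clec10a transcripts and 13.1% of those of Mgl2 occur in another gene, mostly the other of the pair. How reads from such stretches were assigned is stated in none of the sources read here.

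Cd163 (ENSMUSG00000008845), the receptor for haemoglobin bound to haptoglobin, was 15.8, 14.6 and 18.4 CPM in wild-type M0 and 16.2, 14.6 and 11.4 CPM in cKO M0. In M1 it was 0.88, 0.24 and 0.56 CPM in wild-type and 0.34, 0.82 and 0.79 CPM in cKO cells. All M1 libraries were under 1 CPM, and genotypes overlapped in both states. The fall was 28.9-fold in wild-type (log2 -4.85 ± 0.29, adjusted p = 4.7e-10) and 21.5-fold in cKO cells (-4.43 ± 0.28, adjusted p = 1.1e-09). At this level the M1 genotype difference of 0.22 had a 95% interval of -0.63 to 1.07 (adjusted p = 0.76), which leaves room for changes in both directions.

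Stab1 (ENSMUSG00000042286) encodes stabilin-1, a large multidomain receptor that takes up acetylated lipoprotein and the matrix protein SPARC. It was 1188, 1002 and 1366 CPM in wild-type M0 and 898, 1164 and 818 CPM in cKO M0. M1 libraries had 374, 406 and 437 CPM in wild-type and 408, 483 and 513 CPM in cKO cells. Genotypes overlapped in both states, and every M1 library was below every M0 library. The fall was 2.92-fold in wild-type (log2 -1.55 ± 0.14, adjusted p = 5.9e-08) and 2.05-fold in cKO cells (-1.04 ± 0.14, adjusted p = 5.3e-06). The genotype difference was -0.30 ± 0.14 in M0 (adjusted p = 0.25) and 0.21 ± 0.14 in M1 (adjusted p = 0.32). Their difference was 0.51 ± 0.19 (adjusted p = 0.11), and reached an adjusted p of 0.0305 without cKO M0 replicate 2, the cKO library with the highest Stab1 in M0.

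Endothelial cells of some organs also express Stab1. Of 6 endothelial markers, Emcn was at 0 in all libraries, and the sum was 95.6 to 110.3 CPM in wild-type M0, 70.2 to 80.9 in cKO M0, 345 to 418 in wild-type M1 and 129 to 184 in cKO M1. The M1 sum is mostly Kdr, which rose with stimulation from 23.9 to 322 CPM in wild-type and from 23.3 to 119 CPM in cKO cells. Vwf and Stab2 fell with stimulation in both genotypes, as Stab1 did, Vwf from 77.7 to 48.3 CPM and Stab2 from 2.86 to 0.677 CPM in wild-type cells. In M0 Vwf was lower in cKO (-0.69 ± 0.13, edgeR adjusted p = 0.026), where the Stab1 difference was -0.30 and not called. Vwf was the 1 marker called there, of 4 tested. Stab2 was also lower, at 2.66 to 3.15 CPM in wild-type M0 and 1.28 to 1.99 CPM in cKO M0. Cdh5 went the other way, at 0.669 to 0.939 CPM in wild-type M0 and 1.02 to 1.24 CPM in cKO M0. Kdr hardly differed, and Tek was at or near 0. The part of such transcripts in the Stab1 values was not tested.

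Cd36 (ENSMUSG00000002944) encodes a class B scavenger receptor for oxidised lipoprotein and long-chain fatty acids. It was 1263, 1341 and 1180 CPM in wild-type M0 and 1534, 1397 and 1593 CPM in cKO M0. Under stimulation the level was 2036, 1758 and 1825 CPM in wild-type and 1881, 1851 and 1803 CPM in cKO cells. The groups overlapped in M1 but not in M0, where all 3 cKO libraries were higher. Cd36 rose with stimulation 1.49-fold in wild-type (log2 0.57 ± 0.08, adjusted p = 1.4e-05) and 1.22-fold in cKO cells (0.29 ± 0.08, adjusted p = 0.0051). Both directions rest on the scaling: with library totals the changes were -0.01 in wild-type and -0.25 in cKO cells, the latter called lower, beside medians over all genes of -0.65 and -0.58. The Cd36 changes lay above those of the median gene. A change of scaling shifts all genes by about the same amount, so this place is no check of the rise.

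The M0 genotype difference of Cd36 was 0.26 ± 0.08 (edgeR adjusted p = 0.12; 0.040 in DESeq2), and the M1 difference was -0.02 ± 0.08, with a 95% interval of -0.20 to 0.15. Platelets and endothelial cells carry Cd36 too. The sum of 7 platelet markers was 87.9 to 105 CPM in wild-type M0, 101 to 133 in cKO M0, 84.5 to 98.2 in wild-type M1 and 67.3 to 80.2 in cKO M1, with Gp1bb at 0 in all libraries. Most of it is Pf4, at 90.5, 105, 78.1 and 65.8 CPM in those groups. Of 4 tested platelet markers, 3 were called lower in cKO M1, beside 9.67% of all genes. In M0, where the Cd36 groups did not overlap, 0 of the 4 were called, beside 0.662% of all genes higher and 0.953% lower. Their part in the Cd36 values was not tested.

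Folr2 (ENSMUSG00000032725) encodes folate receptor beta, a membrane-anchored folate-binding protein of tissue macrophages. It was 93.0, 94.4 and 82.7 CPM in wild-type M0 and 111, 138 and 164 CPM in cKO M0. In M1 it was 78.1, 83.3 and 70.8 CPM in wild-type and 110, 98.7 and 81.7 CPM in cKO cells. The M0 groups did not overlap, with cKO higher, and the M1 groups overlapped through cKO replicate 9. In M0 Folr2 was 1.53-fold higher in cKO (log2 0.61 ± 0.13, edgeR adjusted p = 0.041). The call was lost without wild-type M0 replicate 4 or 6 (adjusted p 0.117 and 0.257), cKO M0 replicate 2 or 3 (0.0835 and 0.227), wild-type M1 replicate 10 or 12 (0.0608 and 0.0511) or cKO M1 replicate 8 (0.0617). Its size over these settings was 0.47 to 0.64.

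In M1 the Folr2 difference was 0.32 ± 0.13 (adjusted p = 0.10), and was called without cKO M1 replicate 9 (0.42, adjusted p = 0.0328) and with library totals (0.38). The 2 genotype effects differed by -0.29 ± 0.19 (adjusted p = 0.36). Folr2 fell with stimulation in cKO cells (-0.51 ± 0.13, adjusted p = 0.0026), while in wild-type cells the change was -0.22 ± 0.13 (adjusted p = 0.15; -0.80 and called with library totals). The annotated gene Gm10602 on the opposite strand covers 63.1% of Folr2 exon bases in GENCODE vM21. The sources read here do not state the strand setting of the counting, so reads of the 2 genes may not be told apart.

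**Figure D3:**
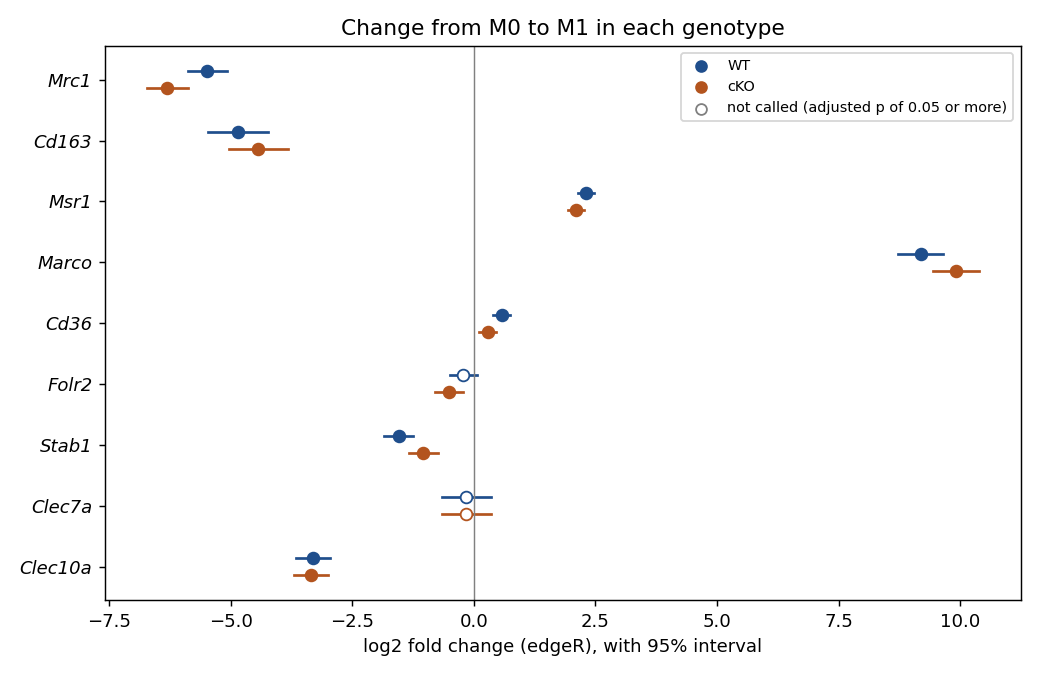
Log2 fold change of 9 receptors in M1 against M0 cells with 95% intervals, for wild-type and cKO cells, open points not being called. Marco at 9.19 and 9.91 and Mrc1 at -5.48 and -6.31 mark the ends, and Clec7a is the gene whose intervals include 0 in both genotypes; Mgl2 is left out because its M1 libraries hold 0 or 1 count.

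Clec7a (ENSMUSG00000079293) encodes Dectin-1, the receptor for fungal beta-glucan, which signals through the kinase Syk and the adaptor Card9. It was 125, 73.2 and 108 CPM in wild-type M0 and 90.5, 38.5 and 52.7 CPM in cKO M0. Stimulated libraries had 96.0, 97.9 and 80.5 CPM in wild-type and 61.2, 52.4 and 50.1 CPM in cKO cells. Each cKO M1 library was below each wild-type M1 library, whereas the M0 groups overlapped through cKO replicate 1 and wild-type replicate 5. Clec7a was the receptor with no call for stimulation in either genotype (-0.16 ± 0.24, adjusted p = 0.56, and -0.15 ± 0.24, adjusted p = 0.59), and its interval in wild-type cells, -0.66 to 0.35, leaves room for changes in both directions. With library totals it was called lower in both, at -0.75 (adjusted p = 0.0113) in wild-type and -0.69 (adjusted p = 0.0186) in cKO cells, beside medians over all genes of -0.65 and -0.58.

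Clec7a was lower in cKO than in wild-type M1 cells, at 59.7% of the wild-type level (log2 -0.74 ± 0.24, edgeR adjusted p = 0.042; 0.058 in DESeq2 and 0.058 with library totals). The M0 difference was of like size, -0.75 ± 0.24, and was not called (adjusted p = 0.12). The 2 effects differed by 0.01, with a 95% interval of -0.71 to 0.73. The M1 call was lost without wild-type M1 replicate 10, 11 or 12 (adjusted p 0.111, 0.131 and 0.0544), cKO M1 replicate 7, 8 or 9 (0.0598, 0.127 and 0.0972) or wild-type M0 replicate 6 (0.054). In M0 the difference was called without cKO replicate 1 (-1.16, adjusted p = 0.00604) and without wild-type replicate 5 (-0.94, adjusted p = 0.0497).

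Within M0, Clec7a was high and low in broadly the same libraries as the B-cell markers Igkc and Jchain. The sum of 8 B-cell markers was 13.6, 7.47 and 12.5 CPM in wild-type M0 and 14.1, 2.08 and 2.65 CPM in cKO M0, and Igkc, the immunoglobulin kappa constant gene, had 386, 171 and 341 and then 318, 4 and 0 counts. Among cKO M0 libraries, replicate 1 was high in both Clec7a and the B-cell sum, and among wild-type M0 libraries replicate 5 was low in both. Jchain was 4.225, 1.98 and 3.76 CPM in wild-type M0 and 5.50, 0.157 and 0.0393 CPM in cKO M0. Cd79b did not follow, at 1.68, 1.96 and 1.79 CPM in wild-type M0 and 2.27, 1.75 and 2.44 CPM in cKO M0. The rest of the B-cell list was at or near 0. Of the neutrophil markers, Mmp8 had a like pattern, at 23.0, 18.8 and 22.3 and then 20.4, 12.6 and 13.7 CPM. S100a8 of that list did not, at 0.84, 0.32 and 0.20 and then 0.64, 0.39 and 0.45 CPM. Of the platelet markers, Ppbp had a like pattern too, at 2.875, 2.377 and 3.149 and then 3.527, 1.688 and 1.277 CPM. Ppbp in M1 was 2.696 to 3.517 CPM in wild-type and 0.9077 to 1.079 CPM in cKO cells. Itga2b was high in cKO M0 replicate 1, at 5.329 CPM beside 2.336 and 2.24 CPM in replicates 2 and 3. Gp1ba did not follow, at 0.6259, 0.9989 and 0.6495 and then 1.046, 1.158 and 0.7075 CPM. The M0 pattern was thus not particular to B-cell markers. In M1 the B-cell sums were 1.84 to 3.01 CPM in wild-type and 0.397 to 0.538 CPM in cKO cells. Igkc had 31 to 60 counts in wild-type M1 and 0 in all 3 cKO M1 libraries. Across the states Clec7a and the sum did not keep step. At sums of 1.84 to 3.01 CPM, wild-type M1 libraries had Clec7a at 80.5 to 97.9 CPM. Replicates 2 and 3 of cKO M0, at 2.08 and 2.65 CPM, had Clec7a at 38.5 and 52.7 CPM. Of 9211 genes compared over the 12 libraries, Igha, an immunoglobulin heavy chain gene, had the highest correlation with Clec7a (r = 0.909). Slc40a1 (0.893) and Gpx3 (0.893) came next, close behind. The part of other cells in the Clec7a values was not tested.

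**Figure D4:**
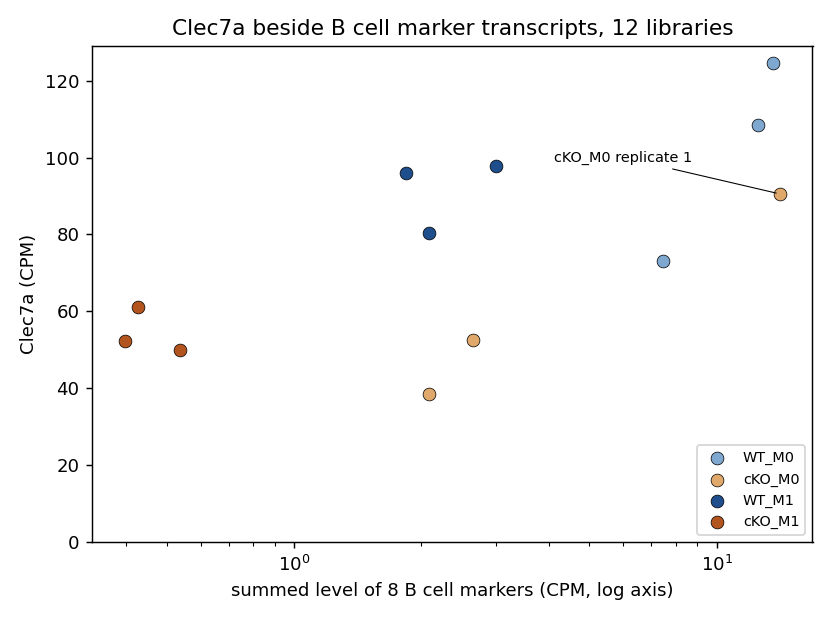
Clec7a level against the summed level of 8 B-cell markers in each of the 12 libraries, in CPM with a log axis for the markers, and colours for the 4 groups. In M0, cKO replicate 1 lies at 14.1 CPM of B-cell markers beside the wild-type libraries at 7.47 to 13.6 CPM, away from the other cKO libraries at 2.08 and 2.65 CPM.

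Compared per kilobase of gene length, Cd36 had the highest level of the 10 receptors in wild-type M0 at 351 CPM per kilobase, followed by Mrc1 at 150 and Stab1 at 115. Folr2 at 58.2, Clec7a at 38.7, Msr1 at 28.8 and Clec10a at 12.3 came next, and Cd163, Mgl2 and Marco were at 2.98, 0.836 and 0.669. Clec7a and Msr1 overlapped between libraries in this order, as did Mgl2 and Marco. In cKO M0, Mrc1, Stab1 and Folr2 overlapped in a chain, with Stab1 at 79.5 to 113 CPM per kilobase between Mrc1 at 112 to 152 and Folr2 at 71.9 to 106.

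In wild-type M1 the order was Cd36 at 522 CPM per kilobase, Marco at 392 and Msr1 at 142, then Folr2, Stab1 and Clec7a at 50.1, 39.4 and 34.7, with Mrc1 down to 3.37. Stab1 and Clec7a overlapped between libraries. In cKO M1 Marco came first at 904 and Cd36 second at 514 CPM per kilobase, and their libraries did not overlap. Mrc1 and Clec10a overlapped near the bottom of the cKO M1 order, at 1.28 to 2.07 and 1.12 to 1.47.

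The 10 receptors summed to 759 ± 10.5 CPM per kilobase (SD, n = 3) in wild-type M0, 809 ± 18.3 in cKO M0, 1184 ± 79.5 in wild-type M1 and 1703 ± 152 in cKO M1. Marco made up 0.0881% and 0.116% of the sum in the M0 groups, 33.1% ± 1.21 in wild-type M1 and 52.9% ± 2.93 in cKO M1. Mrc1 went from 19.8% and 16.1% of the sum in the M0 groups to 0.286% and 0.0988% in M1. Cd36 was 46.3% of the sum in wild-type M0, 51.9% in cKO M0, 44.0% in wild-type M1 and 30.3% in cKO M1, although its own level did not differ between genotypes in M1 by more than the spread. The part of the sum that changed most between genotypes in M1 was therefore Marco.

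**Figure D5:**
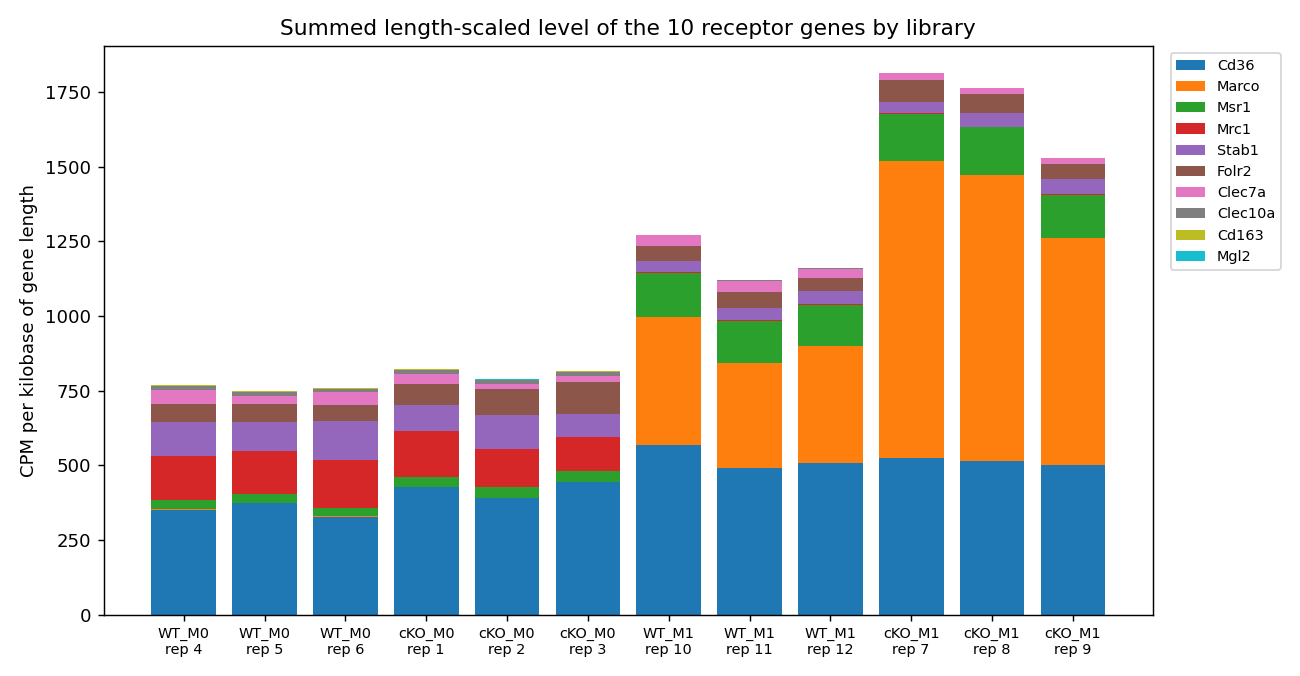
Summed level of the 10 receptors in CPM per kilobase of gene length, as 1 stacked bar per library coloured by gene. Marco is barely visible in M0 and makes up on average 33.1% of the wild-type and 52.9% of the cKO bars in M1.

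Other genes of the same families were read from lists, and their counts stand beside the shares over all genes tested: 34.2% higher and 37.1% lower for stimulation in wild-type cells, 8.98% and 9.67% for genotype in M1, and 0.662% and 0.953% for genotype in M0. Of 18 tested scavenger receptors outside the 10, stimulation raised 4 and lowered 8 in wild-type cells. The share raised was under that of all genes, and the share lowered was somewhat above it. Scarb1, the high-density lipoprotein receptor, fell by 2.29 on the log2 scale, and Cxcl16, a chemokine that binds oxidised lipoprotein, rose by 1.93. In cKO against wild-type M1 cells 1 of the 18 was higher and 2 were lower: Cd14, the LPS co-receptor, by 0.79 ± 0.09 (adjusted p = 8.1e-05), Cd68 by -0.46 ± 0.07 (adjusted p = 0.0005) and Cd5l by -0.58 ± 0.10 (adjusted p = 0.0014). In M0, Scarf1 alone was called (-0.36), a call lost when any 1 of 9 libraries was left out. The medians of these 18 were -0.45 for stimulation in wild-type cells and -0.12 for genotype in M1, beside -0.07 and 0.02 over all genes.

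Of 28 other lectins tested, 13 rose and 9 fell with stimulation in wild-type cells (34.2% and 37.1% of all genes). Clec4e, the mycobacterial glycolipid receptor Mincle, went from 19.6 to 953 CPM (log2 5.61 ± 0.22), and Ly75, a relative of Mrc1, from 2.57 to 67.3 CPM (4.71 ± 0.19), the direction opposite to that of Mrc1. In cKO against wild-type M1 cells 4 were higher and 4 lower (8.98% and 9.67% of all genes), among them Siglece (1.04 ± 0.16), Clec4a1 (0.49 ± 0.10) and Ly75 (-0.90 ± 0.16, adjusted p = 0.0011). Ly75 thus shared with Mrc1 a lower level in cKO M1. In M0, Lgals1 was higher (0.59) and Cd22 lower (-0.73), calls lost when any 1 of 10 libraries and any 1 of 7 was left out.

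Of 16 genes of Dectin-1 signalling, 4 were higher and 2 lower in cKO M1 (8.98% and 9.67% of all genes). None was called in M0, where few genes were (0.662% and 0.953%). The kinase Lyn (0.42 ± 0.09) and the phosphatase Ptpn6 (0.44 ± 0.09) were higher, and Malt1, a protease downstream of Card9, was lower (-0.72 ± 0.15, adjusted p = 0.0042). The list's median was 0.05, beside 0.02 over all genes. With stimulation 8 of the 16 rose and 2 fell in wild-type cells (34.2% and 37.1% of all genes), with Fcer1g, the signalling chain of several activating receptors, at 1.44.

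Of 17 genes linked to alternative activation, 10 rose and 3 fell with stimulation in wild-type cells, with a median of 2.48 beside -0.07 over all genes, of which 34.2% rose and 37.1% fell. Il1rn, the interleukin-1 receptor antagonist, went from 33.3 to 4083 CPM, Tgm2 from 107 to 1436 CPM and Kdm6b from 5.10 to 60.4 CPM. Between genotypes in M1, 3 of the 17 were higher and 3 lower (8.98% and 9.67% of all genes), with Il10ra at 0.54 ± 0.10, Il1rn at -0.59 ± 0.11 and Ccl24 at -1.53 ± 0.38. Ccl24 is at 1.89 CPM or less in all group means, and its call was lost without cKO M1 replicate 8 (adjusted p = 0.0576). In M0, Kdm6b was called (-0.69), which did not hold when any 1 of 9 libraries was left out.

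Of 21 macrophage transcription factors, 15 rose and 6 fell with stimulation in wild-type cells (34.2% and 37.1% of all genes), and 2 were higher and 5 lower in cKO M1 (8.98% and 9.67%). Klf2 was 5.38 CPM in wild-type and 17.3 CPM in cKO M1 (1.68 ± 0.13, adjusted p = 2.2e-05), Bhlhe41 119 and 39.6 CPM (-1.58 ± 0.18), and Bhlhe40 117 and 34.3 CPM (-1.77 ± 0.22). None of the 21 was called in M0. Of 21 genes of lipid uptake and efflux, where Cd36 acts, 1 was higher and 6 were lower in cKO M1 (8.98% and 9.67% of all genes), and Cd36 itself was not called. The lipid chaperone Fabp4 (-1.43 ± 0.21), the lysosomal lipase Lipa (-0.57 ± 0.08) and Nceh1 (-0.71 ± 0.08) were lower. With stimulation 13 of these rose and 2 fell in wild-type cells (34.2% and 37.1% of all genes), with Acsl1 at 5.15, Hilpda at 5.00 and Plin2 at 2.15, and none was called between genotypes in M0.

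Of 10 genes of haem handling, the pathway of Cd163, 7 rose and 1 fell with stimulation in wild-type cells (34.2% and 37.1% of all genes). Haem oxygenase Hmox1 went from 314 to 3529 CPM (3.49 ± 0.07) and haptoglobin Hp from 0.48 to 12.03 CPM, while Cd163 fell. In cKO M1 none was called higher and 2 were lower (9.67% of all genes), the haem exporter Flvcr1 (-0.80 ± 0.09) and the transcription factor Spic (-1.50 ± 0.21), and none was called in M0. Of 11 genes of folate uptake and use, 3 rose and 8 fell with stimulation in wild-type cells (34.2% and 37.1% of all genes), Mthfd2 rising from 35.2 to 162 CPM and Mthfd1 and Slc19a1 falling by 2.12 and 1.94 on the log2 scale.

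Over the 12 libraries, the genes whose log2 CPM followed each receptor most closely were taken from 9211 genes with a mean of at least 5 CPM. Mrc1 was followed by Rab3il1 (r = 0.999), Igfbp4 and Wwp1, Msr1 by Ptgs2 (0.999), Pla2g4a and Agpat4, and Marco by Gsr (0.999), Bst1 and Lpar1. Cd163 was followed by Pkd2 (0.994), Clec10a by Ptpn22 (0.996), Stab1 by Svil (0.990) and Cd36 by Ugdh (0.979). For these receptors the 12 points fall largely into an M0 and an M1 set, so any gene with a like change between states scores high. Folr2 had no gene above 0.947 (Stip1) and Clec7a none above 0.909 (Igha).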

How the data were processed

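The authors deposited 1 table of raw read counts per gene for the 12 libraries, with Ensembl identifiers and gene lengths. The submitters' processing notes name featureCounts 2.0.3, HISAT2 2.2.1 and Trimmomatic 0.39, with SAMtools 1.16.1 and the mouse build GRCm39. Neither the annotation release nor the strand or multi-mapping options of the counting are stated in what was read here. Of the counts from 1 to 10, 60.88% are even, so a count may not be 1 independent molecule. The exact interval and the floor given for Mgl2 cover counting error only, while intervals from the fit include the spread between libraries.

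Symbols were matched for 52073 of 56980 identifiers. Counts were fitted in edgeR 4.0.16 (TMM factors, filterByExpr with a minimum count of 10 and minimum total of 15, 1 mean per group, all 12 libraries, quasi-likelihood F-test), and calls are at a Benjamini-Hochberg adjusted p under 0.05 over all 15110 genes. The fitting script was tested on simulated data with known fold changes. The standard error is the log2 fold change divided by the square root of F. CPM per kilobase uses the deposited lengths. Alternatives were DESeq2 1.42.0, limma-voom (limma 3.58.1), library totals, no filter, halved counts, only the 6 libraries compared, and each library left out. Members and lists were chosen with earlier results of these data known. Genes outside the 10 were named by rule, as up to 3 called genes of each list with the smallest p; a few of these are not reported here. Promoter windows are from RefSeq, and shared stretches and overlaps from GENCODE vM21, a different build from that of the counts.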

Additional observations from a re-analysis of the deposited data

Results flagged for a closer look

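For 23 genes described here or named by the rule, the cKO effect differed between M1 and M0 by the interaction test (edgeR, adjusted p under 0.05 over all genes, 3 libraries in each of 4 groups). The rule also named genes because they were called in this test. Most of the 23 are therefore listed by selection, and their number does not measure how common such calls are. Over all genes, 4.02% were called higher and 4.14% lower. Values are the log2 cKO effect in M1 minus that in M0.

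Among the receptors only Mrc1 was called, at -0.825. Among other scavenger receptors the difference was 0.628 for Cd14, -0.637 for Cd5l, -0.413 for Cd68 and 0.582 for Scarf1. Among other lectins it was -2.343 for Cd207, a gene under 7 CPM in all group means, 0.573 for Clec4a1 and 1.025 for Siglece. In Dectin-1 signalling it was 0.449 for Lyn, 0.487 for Plcg2 and 0.474 for Ptpn6. In the alternative activation list it was 0.891 for Il10ra, -0.980 for Il1rn and 0.646 for Il4ra.

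Among transcription factors the difference was -1.445 for Bhlhe40, -1.428 for Bhlhe41, 1.816 for Klf2 and -0.730 for Klf4. In lipid handling it was -1.224 for Fabp4, -0.525 for Lipa and -0.735 for Nceh1. It was -0.705 for Flvcr1, and in folate use -0.985 for Mthfd2. When 1 library at a time was left out, the call was lost for Mrc1 with 8 of the libraries, for Lyn and Plcg2 with 7 each, for Clec4a1 and Ptpn6 with 6 each, for Fabp4 and Il4ra with 5 each and for Cd5l with 2.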

How the results depend on the processing

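No paired analysis was possible because the replicate numbers all differ between groups. Receptors called between genotypes in M0 numbered 2, or 5 without the low-count filter and 0 to 3 with 1 library left out. Over all genes that comparison gave 244 calls, 871 with DESeq2, 1182 without the filter, 491 with limma-voom, 394 with only the 6 libraries compared and 1 to 452 with 1 library left out. The interaction gave 1 receptor (2 with DESeq2, 3 without the filter, 0 to 2 with 1 library left out) and 1233 genes (1906, 1972 and 565 to 1576). In M1, genes called between genotypes numbered 2818, and 1658 to 3082 with 1 library left out. Without the filter, the median denominator degrees of freedom were 220008 in place of 15.09, so each gene was tested against a shared spread and its p-values are far smaller (Clec7a in M0: 2.4e-11). Those calls are given for completeness only.

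Signs turned for small differences. With library totals Cd36 was -0.012 for stimulation in wild-type, -0.246 in cKO cells and 0.033 for genotype in M1 (-0.081 to 0.035 with 1 library left out), and the Clec10a interaction was 0.002 (-0.273 to 0.087). The Clec10a genotype difference in M1 was -0.017 with DESeq2, -0.018 without the filter, -0.004 with halved counts, -0.02 with 6 libraries and -0.236 to 0.124 with 1 library left out, and that of Cd163 was -0.152 to 0.693. For Clec7a the interaction was -0.001 with DESeq2, -0.021 without the filter and -0.236 to 0.416 with 1 library left out. With 1 library left out its change with stimulation was -0.353 to 0.004 in wild-type and -0.397 to 0.254 in cKO cells, and with library totals it was called lower, at -0.746 and -0.692. Other than for scaling and the filter, the cause was not tested. Depth limits Mgl2 in M1, at 0 or 1 count a library. Halved counts gave 0.219 for Cd163 between genotypes in M1 and 0.479 for Marco in M0, beside 0.217 and 0.480.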
